A study of Mus musculus with 8 samples.

Results

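The proteasome subunits that every cell uses were followed from youth to old age in the mouse RPE/choroid, the pigmented epithelium behind the retina together with its vascular bed. The members were the genes Psma1 to Psma7 and Psmb1 to Psmb7 of the core particle and Psmc1 to Psmc6 and Psmd1 to Psmd14 of the regulatory particle. A probe set is a group of array probes that reads 1 transcript. A gene counted as measured when at least 1 probe set was annotated to it alone, and its brightest such probe set, by mean log2 intensity over the 8 arrays, stood for the gene. All 34 members were measured, 14 in the core particle and 20 in the regulatory particle, out of 18193 genes on the array chosen in the same way. All animals were male C57BL/6 mice with no treatment or altered gene named in the labels. Young animals were 4 months old and old animals were 26 months old. Each age had 4 samples, and each sample pooled the 4 RPE/choroids of 2 animals, so each array averages 2 animals. RNA of each sample was hybridised to 1 Affymetrix Mouse 430 2.0 array, and values are linear intensities, for which the number of arrays limits the precision.

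The proteasome degrades proteins that have been tagged with ubiquitin. Its core particle is a barrel of stacked rings, in which the alpha subunits form the outer rings and control entry, and the beta subunits form the inner rings, where Psmb5, Psmb6 and Psmb7 carry the active sites. The regulatory particle caps the barrel: its base holds the ATPases that unfold a substrate and the subunits that receive ubiquitin, and its lid removes the ubiquitin chain. Transcription of these genes is known to be driven as a group by the factor Nrf1, encoded by Nfe2l1, with small Maf proteins as partners, at antioxidant response elements.

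The core of such an element reads TGACNNNGC, where N is any base. The 250 bases before the start of transcription were searched on both strands in the RefSeq promoters of build GRCm38.p6, which held 30 windows for 28 of the 34 members. The motif was found in 5 of these 30 windows (16.7%), against 10.2% of all 32851 windows. The looser TGANNNNGC, which contains every TGACNNNGC, was in 40.0% of the members' windows and 35.2% of all windows. The unrelated CCAAT box was in 36.7% and 33.8%. The 5 windows are shown because they hold the stricter motif. Each runs 5′ to 3′ on the strand of its gene and ends at the base before the start of transcription, and capitals mark the match.
Psmb5, chr14:54617996-54618245, minus strand: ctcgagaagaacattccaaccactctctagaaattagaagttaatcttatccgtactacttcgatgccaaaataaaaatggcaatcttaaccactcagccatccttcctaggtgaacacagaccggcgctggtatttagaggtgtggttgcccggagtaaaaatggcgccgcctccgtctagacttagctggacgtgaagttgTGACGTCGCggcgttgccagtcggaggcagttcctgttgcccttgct
Psmb6, chr11:70525107-70525356, plus strand: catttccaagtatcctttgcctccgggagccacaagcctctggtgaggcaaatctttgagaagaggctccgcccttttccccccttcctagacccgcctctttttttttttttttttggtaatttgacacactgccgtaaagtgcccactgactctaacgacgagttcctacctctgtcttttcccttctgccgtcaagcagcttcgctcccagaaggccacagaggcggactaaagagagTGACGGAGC
Psmc6, chr14:45329574-45329823, plus strand: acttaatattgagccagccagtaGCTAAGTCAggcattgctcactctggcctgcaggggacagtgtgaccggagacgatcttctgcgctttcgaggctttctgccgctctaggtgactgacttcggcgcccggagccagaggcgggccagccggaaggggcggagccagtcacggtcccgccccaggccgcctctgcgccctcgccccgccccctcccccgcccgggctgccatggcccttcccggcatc
Psmd9, chr5:123227940-123228189, plus strand: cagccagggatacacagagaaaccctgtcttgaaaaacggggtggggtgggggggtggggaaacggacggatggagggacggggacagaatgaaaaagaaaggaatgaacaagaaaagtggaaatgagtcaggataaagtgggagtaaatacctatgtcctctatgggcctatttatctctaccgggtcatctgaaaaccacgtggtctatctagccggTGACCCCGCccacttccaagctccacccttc
Psmd12, chr11:107479278-107479527, plus strand: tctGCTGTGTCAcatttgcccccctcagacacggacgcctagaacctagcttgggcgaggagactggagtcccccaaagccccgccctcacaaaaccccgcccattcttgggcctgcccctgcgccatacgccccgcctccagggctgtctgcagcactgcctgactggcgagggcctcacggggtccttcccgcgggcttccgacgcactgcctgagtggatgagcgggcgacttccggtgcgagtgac
In Psmb6 the match ended at the last base before the start, and in Psmd9 and Psmb5 it ended 23 and 39 bases before it. In Psmc6 and Psmd12 the match lay on the opposite strand, and its base nearest to the start was 219 and 239 bases away. A match is a description of letters and not of a bound site.

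In old RPE/choroid 6 of the 34 subunits were higher and none was lower, and each change was small. The 6 were Psmd8, Psmd1, Psmd9, Psmd2, Psmb6 and Psmc6, with folds between 1.13 and 1.31. A call required an adjusted p under 0.05 from Limma, with Benjamini-Hochberg adjustment over all 45037 probe sets that were not controls. The share of members higher, 17.6%, stood beside 11.8% of all genes higher and 9.56% of all genes lower in old animals. At an unadjusted p under 0.05, 13 of 34 members differed (38.2%), a share close to the 37.4% of all genes. Fold changes were above 0 on the log2 scale in 31 of 34 members, a count that dropped to 20 when the arrays were quantile normalized, and in 46.5% of all genes. The median log2 fold change, old minus young, was 0.09 over the members and -0.02 over all genes. Every 95% interval of a member lay between -0.19 and 0.53 on the log2 scale, so none reached a 2-fold difference in either direction. The count depended on which arrays were included. Without young 1, young 3, young 4, old 2, old 3 or old 4 it was 3 members, Psmd1, Psmd2 and Psmd8 each time. Without old 2 and old 4 together it was 1, Psmd8. The share of all genes higher fell as well. It was between 8.11% and 9.29% when 1 of those arrays was left out, and 5.86% without old 2 and old 4. In a bulk tissue, a change in the number of cells of a type and a change in RNA per cell cannot be told apart.

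**Figure D1:**
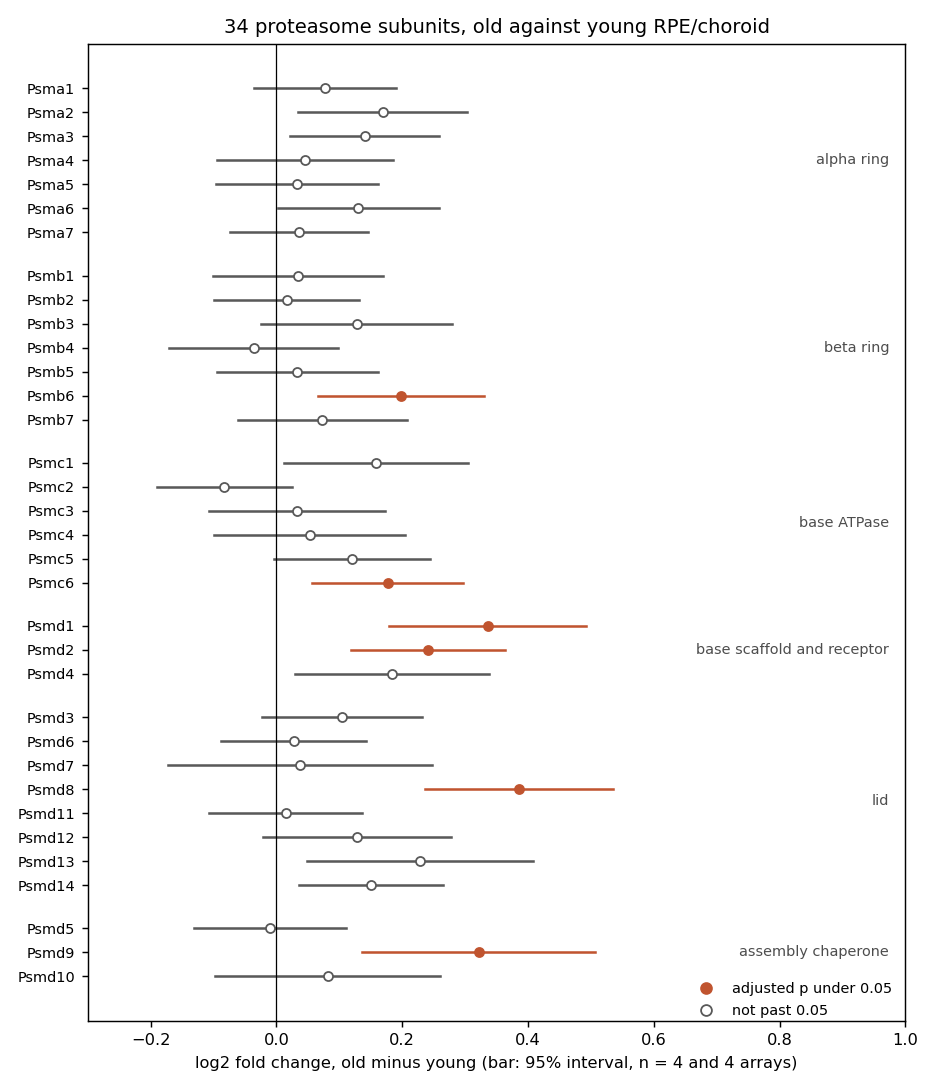
Log2 fold change, old minus young, of each of the 34 subunits, grouped by role, with its 95% interval from Limma (4 old and 4 young arrays). Filled points passed an adjusted p of 0.05; 31 of 34 points lie above 0 (20 under quantile normalization), and no interval extends past -0.19 or 0.53.

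The alpha ring held no called member (0 of 7). Psma2 had its smallest p, and its intensity was 2518, 2579, 2418 and 2455 in young 1 to 4 and 2593, 2948, 2945 and 2733 in old 1 to 4. The old values all exceeded the young values, but the log2 fold change of 0.17 ± 0.06 (SE) had an adjusted p of 0.0809, and it passed under 4 of the 18 alternative settings. Psma3 gave the same picture, with all 4 old arrays above the young and a log2 fold change of 0.14 at an adjusted p of 0.0966. The other 5, Psma1, Psma4, Psma5, Psma6 and Psma7, overlapped between ages and had log2 fold changes from 0.03 to 0.13.

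In the beta ring 1 of 7 members rose, Psmb6, one of the subunits with an active site. Psmb6 carries the caspase-like site, which cuts after acidic residues. Its intensity was 2035, 2249, 2044 and 1993 in young 1 to 4 and 2261, 2369, 2449 and 2461 in old 1 to 4. The lowest old array lay just above the highest young array, young 2. The log2 fold change was 0.20 ± 0.06 (SE), a fold of 1.15, with an adjusted p of 0.0463, and the adjusted p was between 0.0835 and 0.114 without young 1, young 3, young 4, old 2, old 3 or old 4.

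Neither of the other catalytic subunits passed the test. Psmb5, which carries the chymotrypsin-like site and is the target of proteasome inhibitor drugs, measured 2273, 2321, 2098 and 2082 in the young and 2208, 2180.2, 2275 and 2308 in the old arrays. All 4 old values lay within the span of the young ones. Its log2 fold change was 0.03, with a 95% interval from -0.09 to 0.16 and an adjusted p of 0.723. Psmb7, with the trypsin-like site, measured 2517, 2625, 2360.1 and 2305 in the young and 2514, 2528, 2707 and 2558 in the old arrays. Its groups overlapped, and its log2 fold change of 0.07 had a 95% interval from -0.06 to 0.21. Of the non-catalytic beta subunits, Psmb1, Psmb2 and Psmb3 had log2 fold changes of 0.03, 0.02 and 0.13, and Psmb4 had -0.04 on its brightest probe set and 0.11 on the other one, with none past the test.

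Among the 6 ATPases of the base, Psmc6 rose. Its intensity was 1818, 1877, 1807 and 1693 in young 1 to 4 and 1996, 2118, 2002 and 2013 in old 1 to 4. The old arrays were tightly grouped apart from old 2 and all lay above the young. The log2 fold change of 0.18 ± 0.05 (SE) had an adjusted p of 0.0498, which is at the edge of the threshold: it was between 0.0639 and 0.125 when any array other than young 2 was left out. A dimmer probe set of Psmc6 had a log2 fold change of -0.16 at an adjusted p of 0.173, so the probe sets of this gene disagreed in direction.

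Psmc2, another of the ATPases, was the only member with every old array below every young array. It measured 2641, 2652, 2713 and 2752 in the young and 2487, 2619, 2555 and 2499 in the old arrays. The groups were separate by a narrow gap, and the log2 fold change of -0.08 ± 0.05 (SE) did not pass the test (adjusted p = 0.263). Dimmer probe sets of Psmc2 had log2 fold changes of -0.01 and -0.10, with adjusted p of 0.928 and 0.371. Psmc1, Psmc3, Psmc4 and Psmc5 overlapped between ages, with log2 fold changes from 0.03 to 0.16.

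The non-ATPase subunits of the base held 2 of the 6 calls. Psmd1 and Psmd2 are the large scaffolds on which ubiquitin receptors and shuttle proteins dock, and Psmd4 is itself a ubiquitin receptor. Psmd1 measured 1747, 1834, 1687 and 1627 in young 1 to 4 and 1943, 2312, 2268 and 2189 in old 1 to 4. Old 1 stood lower than the other old arrays and still above all the young. The log2 fold change was 0.34 ± 0.07 (SE), a fold of 1.26, with an adjusted p of 0.0118.

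Psmd2 measured 1293, 1369.9, 1328 and 1232 in the young and 1529.5, 1483, 1561 and 1596 in the old arrays. The 4 old arrays were close together and did not overlap with the young. Its log2 fold change was 0.24 ± 0.05 (SE), with an adjusted p of 0.0169. The dim second probe set of Psmd2, at mean intensities of 22.3 in the young and 20.5 in the old, had -0.13 (adjusted p = 0.445). With the mean of both probe sets Psmd2 had a log2 fold change of 0.05 and was not called. Psmd4 had a log2 fold change of 0.18 with an adjusted p of 0.0931, and its lowest old array, old 1 at 1577, lay below its highest young array, young 2 at 1609.5. Psmd1, Psmd2 and Psmd8 were the members whose calls held when any 1 array was left out.

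The lid held the largest change of all 34 members, in 1 of its 8 subunits. Psmd8 is a small lid subunit that is added late in lid assembly. It measured 2034, 2103, 1869 and 1894 in young 1 to 4 and 2455, 2433, 2769.7 and 2663 in old 1 to 4. The lowest old array exceeded the highest young array by a clear margin, and old 3 and old 4 were the highest. The log2 fold change was 0.39 ± 0.07 (SE), a fold of 1.31 with a 95% interval from 1.18 to 1.45, and the adjusted p was 0.00495. Psmd8 was called under all 18 of the alternative settings fitted, Psmd1 under 17 and Psmd2 under 15, against 9 for Psmb6, 9 for Psmd9 and 7 for Psmc6.

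The other 7 lid subunits had log2 fold changes from 0.01 (Psmd11) to 0.23 (Psmd13), with none past the test. Psmd14, the lid enzyme that cuts ubiquitin chains from a substrate, had every old array above every young array, a log2 fold change of 0.15 ± 0.05 (SE) and an adjusted p of 0.07. Psmd13 had an adjusted p of 0.0779 on its brightest probe set, while a dimmer one rose with a log2 fold change of 0.26 and an adjusted p of 0.0263. The same was seen for Psmd11: its brightest probe set was at 0.01, and another probe set rose with a log2 fold change of 0.27 and an adjusted p of 0.0089. Of the 38 probe sets of members that were not the brightest of their gene, these 2 were higher and 0 were lower. Thus 8 members rose if any probe set of the gene is allowed to count. That rule favours genes with many probe sets, and Psmd11 had 8 and Psmd13 had 4. No share of all genes was taken under it, so the 8 cannot be set beside one.

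Psmd5, Psmd9 and Psmd10 are named as regulatory subunits but act as chaperones in assembly of the base and are not part of the finished complex. Psmd9 rose, the dimmest of the members called. It measured 304, 314, 285 and 269.8 in the young and 325, 358, 413 and 372 in the old arrays. The old arrays were more spread than the young and did not overlap with them. The log2 fold change was 0.32 ± 0.08 (SE), with an adjusted p of 0.027 that was between 0.0503 and 0.0715 without young 1, young 3, young 4, old 2, old 3 or old 4. Its dimmer probe sets had log2 fold changes of 0.01 each. Psmd5 and Psmd10 had log2 fold changes of -0.01 and 0.08, with adjusted p of 0.911 and 0.513.

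**Figure D2:**
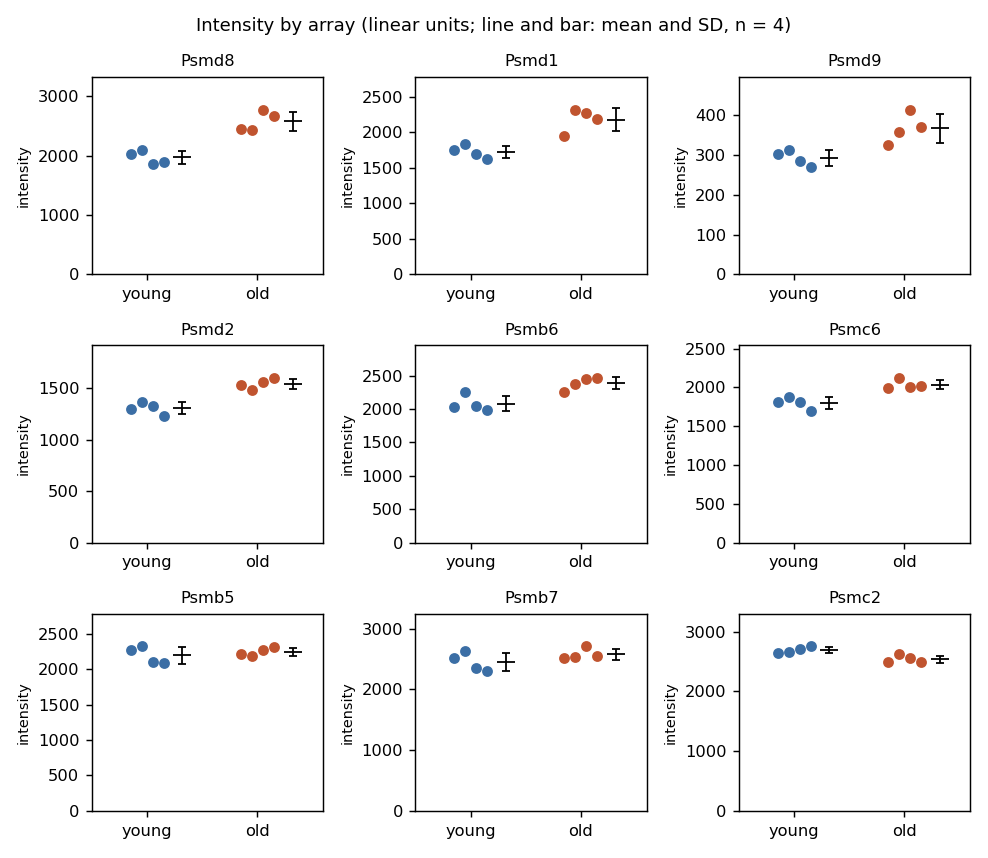
Linear intensity in each array of the 6 subunits called higher in old animals, in the upper and middle rows, and of Psmb5, Psmb7 and Psmc2, with mean and SD (n = 4 arrays per age) and axes starting at 0. In Psmd8 the old arrays lie at 2433 and above and the young at 2103 and below, whereas in Psmb5 and Psmb7 the ages overlap.

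Read by particle, the core had 1 of 14 members higher (7.14%) and the regulatory particle 5 of 20 (25%). Without the assembly chaperones the latter was 4 of 17 (23.5%). Of all genes, 11.8% were higher. The core count was 0 under quantile normalization. The median log2 fold change was 0.06 in the core and 0.12 in the regulatory particle, or 0.06 and 0.08 when the mean of all probe sets of a gene was used. The difference between the particles was not tested. Under quantile normalization the medians were 0.00066 in the core and 0.07 in the regulatory particle, with 7 of 14 and 13 of 20 log2 fold changes above 0. Complete separation of the ages was seen for 9 members with the old arrays above, Psma2, Psma3, Psmb6, Psmc6, Psmd1, Psmd2, Psmd8, Psmd9 and Psmd14, and for 1 with the old arrays below. Among all genes, 15.8% had every old array above every young array and 13.7% every old array below.

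The arrays of an age were not alike in these genes. Centring each member on its mean over the 8 arrays gave a median for each array on the log2 scale. In the young these medians were -0.03, 0.02, -0.08 and -0.11, and in the old they were -0.00, 0.09, 0.07 and 0.05. Young 2 thus stood above old 1, and the ages overlapped. Young 2 was the highest young array for 24 of the 34 members and young 4 the lowest for 22, while old 1 was the lowest old array for 20. The number of members above every young array was 11 in old 1, 21 in old 2, 21 in old 3 and 17 in old 4. The same counts were not taken over all genes. They describe how the old arrays differed and are not read as a result about the members.

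**Figure D3:**
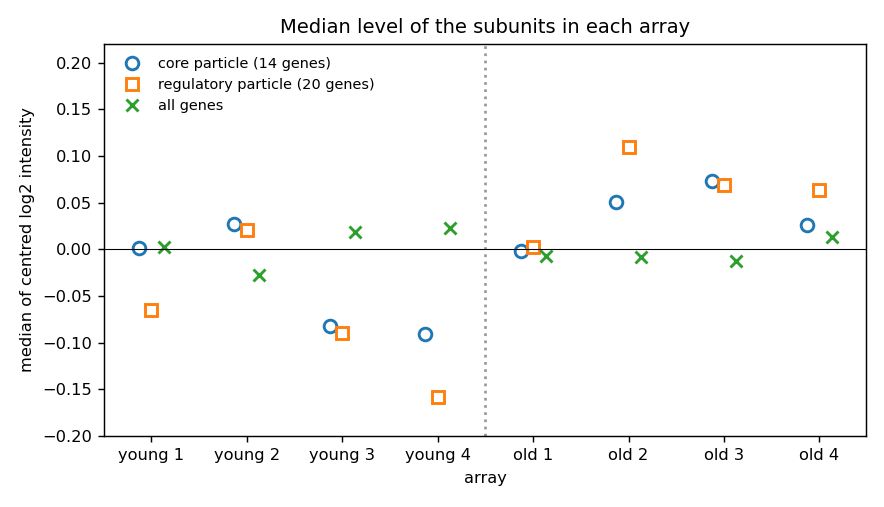
Median over the 14 core subunits, the 20 regulatory subunits and all 18193 genes of log2 intensity centred on each gene's mean over the 8 arrays, plotted for each array. The subunits run from -0.16 (regulatory particle, young 4) to 0.11 (regulatory particle, old 2), and young 2 lies above old 1 for both particles.

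The immunoproteasome subunits replace the catalytic subunits in immune cells and under interferon, and Psmb8 and Psmb10 rose further than the constitutive subunits they replace. Of the 5 immunoproteasome and tissue-specific subunits 3 were higher (60%, beside 11.8% of all genes) and none was lower. Psmb8, the counterpart of Psmb5, measured 445, 438, 388 and 386 in the young and 717, 801, 1022 and 688 in the old arrays. Its log2 fold change was 0.95 ± 0.12 (SE), with an adjusted p of 0.00107. Psmb10, the counterpart of Psmb7, had a log2 fold change of 0.48 ± 0.08 (SE) with an adjusted p of 0.0052. For Psmb9, the counterpart of Psmb6, these values were 0.59 ± 0.16 (SE) and 0.0328, and the adjusted p was between 0.0542 and 0.08 when any 1 young array was left out and 0.0551 without old 2. Psma8 and Psmb11, subunits of testis and thymus, did not pass the test.

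Each immunoproteasome subunit was set against its counterpart within the same array, and the log2 ratio was compared between ages. Only the change of a ratio is read here, since levels of different probe sets are not comparable. Psmb8 over Psmb5 was -2.35, -2.40, -2.43 and -2.43 in the young and -1.62, -1.44, -1.15 and -1.75 in the old arrays. The ages were separate, with the young arrays nearly equal and old 3 the highest. The difference was 0.91 ± 0.13 (SE), with an adjusted p of 0.0429 over 3 pairs in an exact two-sided permutation test. Psmb10 over Psmb7 differed by 0.41 ± 0.07 (SE), with an adjusted p of 0.0429 in the same exact test, and its ages were separate. Psmb9 over Psmb6 differed by 0.39 ± 0.19 (SE), with an adjusted p of 0.0571 in the exact test, and old 4 at -2.64 lay below young 1 at -2.53. With 4 arrays against 4 the smallest p that this test allows is 0.0286 before adjustment.

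**Figure D4:**
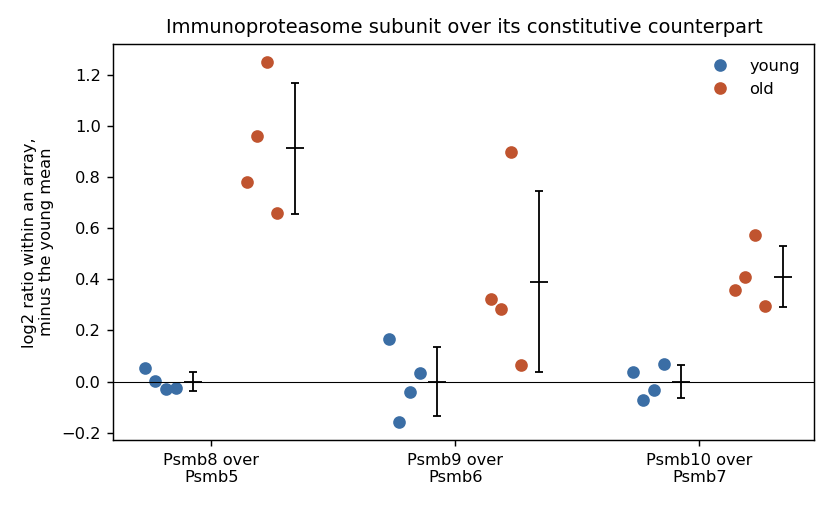
Log2 ratio of each immunoproteasome subunit to its constitutive counterpart within an array, minus the mean of the young arrays, with mean and SD (n = 4 arrays per age). The old arrays lie above the young for Psmb8 over Psmb5 (difference 0.91) and Psmb10 over Psmb7 (0.41), and the ages overlap for Psmb9 over Psmb6.

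Of the activators that can replace the regulatory particle and the inhibitor Psmf1, 2 of 4 measured genes rose and none fell. The share higher was 50%, beside 11.8% of all genes. Psme1, a subunit of the interferon-inducible activator, had a log2 fold change of 0.23 ± 0.06 (SE) with an adjusted p of 0.0211, which was 0.0571 without young 1 and 0.0586 without old 3. Psme4, a large single-chain activator, had 0.20 ± 0.05 (SE) and 0.0324, with adjusted p between 0.0547 and 0.0795 when any array other than old 1 was left out. Psmf1 and Psme3 had log2 fold changes of 0.16 and 0.06, with adjusted p of 0.102 and 0.565.

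The factors that assemble the proteasome or import it into the nucleus gave no call. In Limma 0 of 7 measured genes passed the test, and 0 had an unadjusted p under 0.05. Of all genes, 11.8% were higher and 9.56% lower, and 37.4% had an unadjusted p under 0.05. The genes with the smallest p were Akirin2, the adaptor for nuclear import, at a log2 fold change of 0.09, the core assembly chaperones Psmg4 and Psmg3 at 0.12 and 0.07, and the adaptor Ecpas at -0.07.

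Among the further subunits and proteins that bind the proteasome, 3 of 9 measured genes rose and none fell on the brightest probe set. The share higher was 33.3%, beside 11.8% of all genes. Uchl5, a deubiquitinase of the base, measured 789, 754, 678 and 691 in the young and 938, 1146, 1019 and 1046 in the old arrays. The ages were well apart, with a log2 fold change of 0.51 ± 0.08 (SE), and an adjusted p of 0.00274. Its dimmer probe set had a log2 fold change of 0.13 with an adjusted p of 0.284, and the mean of both gave 0.32 with an adjusted p of 0.0111. Usp14, the other deubiquitinase that binds the base, at Psmd2, measured 973, 864, 1078 and 999 in the young and 1270.5, 1135, 1220.3 and 1187 in the old arrays. All old arrays were above the young, at a log2 fold change of 0.30 ± 0.07 (SE) and an adjusted p of 0.0236, which was 0.0559 without young 1 and 0.0626 without old 3. A second probe set of Usp14 also rose, by 0.31 with an adjusted p of 0.00771. The dimmest ones had log2 fold changes of 0.002 and -0.07, with adjusted p of 0.988 and 0.402. The mean of all probe sets of Usp14 gave 0.14 with an adjusted p of 0.0513.

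Txnl1, a redox protein bound to the regulatory particle, rose on its brightest probe set, with a log2 fold change of 0.22 and an adjusted p of 0.0389 that was between 0.0518 and 0.0932 when any 1 array was left out. A dimmer probe set fell by 0.23 on the log2 scale with an adjusted p of 0.0411, so the direction for this gene is not settled. Ubqln4, a shuttle for ubiquitinated proteins, had every old array below every young array, with a log2 fold change of -0.19 and an adjusted p of 0.103.

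Nfe2l1, which encodes Nrf1, did not pass the test. It measured 1209.7, 1226, 1264 and 1284 in the young and 1145, 1074, 1082 and 1162 in the old arrays. Every old array was below every young array, at a log2 fold change of -0.16 ± 0.05 (SE) and an adjusted p of 0.0646. It passed as lower under quantile normalization (-0.23, adjusted p = 0.0152) and under 4 other settings with adjusted p from 0.0264 to 0.0374, and it was -0.13 with an adjusted p of 0.116 under median centring. Of the 7 measured genes of the list for transcription and activation of Nrf1, 2 rose and none fell, and both were small Maf partners. The share higher was 28.6%, beside 11.8% of all genes. Maff measured 107, 118, 113 and 126 in the young and 161, 222, 167 and 172 in the old arrays. The ages did not overlap and old 2 was the highest, with a log2 fold change of 0.63 ± 0.10 (SE) and an adjusted p of 0.00397. Mafk had 0.35 ± 0.07 (SE) and 0.011. Nfe2l2, the stress factor that shares these elements, had a log2 fold change of 0.17 with an adjusted p of 0.121 on its brightest probe set and 1.82 with an adjusted p of 0.0326 on a dimmer one. The windows printed above belong to members that did and did not pass the test: Psmb6, Psmc6 and Psmd9 were called, and Psmb5 and Psmd12, at 0.03 and 0.13, were not.

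Of the genes that make ubiquitin conjugates or deliver them to the proteasome, 1 of 7 measured rose on the brightest probe set. The share, 14.3%, was close to the 11.8% of all genes. Ube2d3, an abundant ubiquitin-conjugating enzyme, measured 2494, 2629, 2276 and 2297 in the young and 2821, 3688, 3247 and 3052 in the old arrays, and the old arrays were all higher and more spread. Its log2 fold change was 0.40 ± 0.09 (SE) with an adjusted p of 0.0159, and 3 of its 7 probe sets rose. The others had log2 fold changes from -0.08 to 0.12, none called. The mean of all 7 gave 0.13 with an adjusted p of 0.0766. Uba6, Ube2k and Ufd1 had log2 fold changes of 0.21, 0.18 and 0.12 on the brightest probe set, with adjusted p of 0.0831, 0.166 and 0.171. The other probe set of Ufd1 rose by 0.36 with an adjusted p of 0.00757. The mean of both gave 0.24 with an adjusted p of 0.0139. For Uba6 and Ube2k the mean of all probe sets gave 0.01 and -0.04, with adjusted p of 0.909 and 0.697.

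Levels of cell type markers also differed between the ages. Of all genes, 11.8% were higher and 9.56% lower. Of the macrophage markers 6 of 10 were higher in old animals, Cd68, Adgre1, Aif1, Mrc1, Lyz2 and Fcgr1. Cd14, Mertk, Csf1r and Cx3cr1 had log2 fold changes of 1.11, 0.15, -0.04 and -0.18, none of them called. The summed intensity of the list was 21038 to 23773 in the young and 30052 to 32328 in the old arrays. Lyz2 alone was 10423 to 12242 in the young and 14991 to 15197 in the old arrays. Lymphocyte markers were higher for 4 of 9 measured, Cd3d, Cd3g, Cd8b1 and Nkg7. Cd3e, Cd8a, Cd79b and Gzma had log2 fold changes of -0.13, -0.14, -0.14 and -0.29, and Cd79a had 0.01, none of them called. The summed intensity of these markers was 1253 to 1455 in the young and 1430 to 1675 in the old. All 12 RPE markers were measured, with Best1 at an intensity of 161.9 to 194.7, and 8 of 12 were lower, from a sum of 126005 to 127874 in the young to 108793 to 118476 in the old. For endothelium 7 of 8 markers were lower, with sums of 9306 to 11387 and 6963 to 8674. Rod photoreceptor markers were called in neither direction (0 of 9), with 9490 in young 4 against 17874 to 19988 in the other young arrays and 20117 in old 4 against 7251 to 11481 in the other old arrays. Markers of Mueller glia and inner retina were lower for 3 of 10, Slc1a3, Gfap and Rlbp1, of which Rlbp1 is also counted among the RPE markers. Skeletal muscle markers were called for 0 of 8, and their sum was 1890.0 in young 3, 2154 in young 4 and 1975 in old 1 against 957 to 1242 in the other 5 arrays. These 3 arrays also had the lowest medians of the proteasome subunits for their age. Of the fibroblast markers 1 of 6 was higher. No marker measured was under an intensity of 1 in any array. The part of these shifts in the changes of the proteasome genes was not tested.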

How the data were processed

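RNA of 4 young and 4 old RPE/choroid samples was measured on Affymetrix Mouse 430 2.0 arrays. The deposited table holds linear intensities, with array medians of 129 to 135, and was taken as normalized by the authors, which was not tested. Their methods name GCOS, RMA and Dchip, without saying which step made this table. Intensities were floored at 1 and log2 transformed. Old was tested against young with limma 3.58.1 (lmFit and eBayes, R 4.3.3) over 45037 probe sets, leaving out 64 controls, with Benjamini-Hochberg adjustment. Of these, 34945 were annotated to 1 gene and 932 to several, and 9160 had no gene name. The brightest single-gene probe set stood for a gene. Values in every array were given for catalytic subunits, called members and the smallest p of a role without a call. Ratios of subunits were tested with an exact permutation test. Replicates carry separate sample labels, and p-values measure the spread between these pools. Members and lists were chosen with earlier results of these data known. The fit was tested on simulated data. Alternatives covered the level filter, normalization, offset, eBayes options, array weights, replicate block, choice of probe set, and leaving out arrays.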

Additional observations from a re-analysis of the deposited data

Results flagged for a closer look

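An array stood apart from the other 3 of its age in 5 of the 68 groups of the members and in 11 of the 78 groups of the other pathway genes, by its gap to the nearest array over the range of the group. Chance gives this in about 1 in 20 groups. Among the members the outlying intensities were 1115.5 in old 1 for Psmc4, 2118 in old 2 for Psmc6, 1577 in old 1 for Psmd4, 361 in old 4 for Psmd10 and 2229 in old 2 for Psmd11. Of these genes Psmc6 was called, and leaving out old 2 gave it a log2 fold change of 0.16 with an adjusted p of 0.109.

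Among the immunoproteasome subunits and activators, Psmb9 was high in young 1 at 351.5 and in old 3 at 701.9, Psma8 was high in old 2 at 85.3 and Psme1 was high in old 3 at 2215. Psmf1 was low in young 3 at 523.5, Psme3 was high in young 4 at 463.2, and Ubqln4 was low in old 3 at 222.6. Psmg1 was low in old 2 at 444.8 and Nploc4 was high in old 2 at 914.7. Ube2k was low in young 4 at 1487 and high in old 2 at 2112.5.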

How the results depend on the processing

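The number of members higher in old animals was 6, with 1 in the core and 5 in the regulatory particle. It was 11 (3 and 8) when only probe sets above the median level were tested, where 19.8% of 12214 genes were higher, 11 (3 and 8) with a trended, robust eBayes fit (13.9% of all genes) and 11 (2 and 9) with array weights (14.4%). Psma2, Psmd4, Psmd13 and Psmd14 were called under each of these. It was 4 (0 and 4) after quantile normalization (10.6%), without Psmb6 and Psmc6. Without old 2 and old 4, an alternative chosen after seeing the data, it was 1 (0 and 1). At an adjusted p under 0.01 it was 1 (0 and 1), and 0 (0 and 0) when a fold over 2 was also required. No share of all genes was taken at these stricter thresholds. Leaving out 1 array in turn gave 3 to 7 members, with 0 to 2 in the core and 3 to 6 in the regulatory particle. Beside these stood 8.11% to 12.2% of all genes, and 5.86% without old 2 and old 4. With the replicate number as a block the count was 2 (0 and 2), Psmd1 and Psmd8, beside 9.1% of all genes. The labels give only replicate numbers, so whether the numbers pair the samples is not known. Same-numbered arrays had residual correlations of 0.097, 0.019, 0.022 and 0.043, and only replicate 1 correlated best with its own number. With 4 arrays per age and residuals taken within each age, these values cannot exclude a pairing. No member was called lower under any of these settings. Quantile normalization also ended the calls of Psme1 (adjusted p = 0.0674), Psme4 (0.0806), Usp14 (0.0597) and Txnl1 (0.0895). The causes of these moves were not tested.

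The median log2 fold change of the core was 0.06 and became 0.00066 under quantile normalization. Under that setting the sign turned for Psma4 (-0.017), Psma5 (-0.026), Psma7 (-0.027), Psmb1 (-0.024), Psmb2 (-0.053), Psmb5 (-0.023), Psmc3 (-0.027), Psmc4 (-0.017), Psmd6 (-0.034), Psmd7 (-0.019) and Psmd11 (-0.043), none of them called in either fit. Taking the mean of all probe sets turned Psmb1 (-0.060), Psmb4 (0.037) and Psmc6 (-0.0086), of which Psmc6 was called on its brightest probe set. The count with that mean was again 6, beside 12% of all genes, but the members changed. Psmc6, Psmd2 and Psmd9 lost the call, and Psmd4, Psmd13 and Psmd14 gained it. Psmd5 turned with median centring (0.017) and array weights (0.0053), and Psmd11 without old 2 and old 4 (-0.016). Leaving out 1 array in turn gave both signs for Psmb2 (-0.0015 to 0.038), Psmb4 (-0.061 to 0.0078), Psmc3 (-0.00069 to 0.070), Psmd5 (-0.029 to 0.017), Psmd7 (-0.031 to 0.093) and Psmd11 (-0.020 to 0.028). Dim probe sets such as those of Psmd9 have the least signal over background. Of the log2 fold changes of the called members under the alternatives, 75 stayed on their side of the threshold, 32 lost the call in the same direction and 1 turned.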
